A study of Mus musculus with 38 samples.

Results

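Matrix metalloproteinases (MMPs) and the ADAMTS proteases (a disintegrin and metalloproteinase with thrombospondin motifs) are the zinc enzymes that cleave the extracellular matrix. The genes described here are all those whose symbol begins with *Mmp* or *Adamts* followed by a number and which have a probe set that carries no other gene's symbol. There were 40 of them among 19938 named genes on the array, 22 *Mmp* and 18 *Adamts* genes, and a gene with several such probe sets was represented by its brightest, judged by the mean over the 38 arrays. *Mmp15* and *Adamts2* were not analysed here.

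MMPs are made as inactive proenzymes, opened by plasmin, furin-like convertases or other MMPs, and held in check by the tissue inhibitors of metalloproteinases (TIMPs). ADAMTS enzymes are secreted proteins bound to the matrix; their subfamilies cut proteoglycans such as versican and aggrecan, trim procollagens, cleave cartilage oligomeric matrix protein (COMP) or process von Willebrand factor. In carcinomas these enzymes are made by tumour cells and by the stroma, and macrophages are a well-known source of the metalloelastase encoded by *Mmp12*.

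RNA came from the thyroids of 38 mice, 1 GeneChip array per mouse, with a part of each gland used for RNA and the rest for histology. Transgenic mice, made on FVB/N zygotes, carried a human cDNA for the mutant kinase BRAFV600E under the bovine thyroglobulin promoter, which is active in thyroid follicular cells; *BRAF*(+) means that transgene RNA was found in the thyroid and *BRAF*(-) that it was not. *BRAF*(-) mice were genotyped as non-transgenic, except 1 mouse of line tg1 that carried the transgene without its RNA, which by lesion, status and age is M_764, a 24-month-old *BRAF*(-) mouse with a benign hyperplastic lesion. The 6 groups were papillary thyroid carcinoma (PTC, 10 mice aged 6 to 21 months) and borderline lesions (BL, 10 mice, 4 to 21 months), all *BRAF*(+); asymptomatic thyroids (AT), 5 *BRAF*(+) mice of 7 to 11 months and 5 *BRAF*(-) mice of 4 to 12 months; and benign hyperplastic lesions (BHL), 4 *BRAF*(+) mice of 4 to 11 months and 4 *BRAF*(-) mice of 6 to 24 months. Each group held 1 or 2 males, and the transgenic mice came from several founder lines that were not separated here. By the same reading of the study's sample table, M_779, the youngest *BRAF*(+) AT, was the only tg2 mouse of its group. All *BRAF*(+) BHL came from another line. The study reports that BRAFV600E protein was highest in tg2. Single mice are named by the study's mouse number, as in M_764.

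Signals are log2 values after the authors' robust multi-array averaging (RMA). Array medians lay between 6.00 and 6.15, *Xist* and the Y-linked genes matched the recorded sex of every mouse, and the *Braf* probe set lay at 9.19 to 10.3 in the 29 *BRAF*(+) and at 8.78 to 9.33 in the 9 *BRAF*(-) mice. The thyroid marker list averaged 8.83 or more on every array. Y-linked genes in females, where no transcript exists, gave 2.82 to 4.13; 2 of the 40 genes never rose above that range and 20 had a mean under 6, so that their small differences lie at the dim end of the scale. Because tissue was measured in bulk, more cells of a type and more RNA per cell cannot be told apart. A gene was called where the adjusted p of limma, taken over all 35556 probe sets, was under 0.05; differences are log2, adjusted for sex.

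Of the 40 genes, 10 belong to the cluster on chromosome 9, in the order *Mmp13*, *Mmp12*, *Mmp1b*, *Mmp3*, *Mmp1a*, *Mmp10*, *Mmp8*, *Mmp27*, *Mmp20* and *Mmp7*, with 0 protein-coding genes between any neighbours in RefSeq (GRCm38.p6). AP-1, the dimers of Fos and Jun proteins that act at the end of the MAPK cascade, binds a core with G or C as its middle base. A match to TGANTCA, a looser form of that core, was found between 35 and 95 bases before the start of 8 of these 10 genes. The *Mmp20* match has A in the middle. All promoter windows of 300 bases in the RefSeq table were searched on both strands; the letters occurred in 7.81% of the 32851 windows and in 0 of the 16 other genes of the family that had a window. Of the genes that share the letters, 1 was called higher and 1 lower in PTC against *BRAF*(-) AT, beside 9.8% and 9.01% of all probe sets. These counts are near those shares and do not tie the letters to a change in signal. The 8 matches are shown for their place in the cluster. Each is given 5′ to 3′ along its gene with 20 bases on either side and the match in capitals; the gene's sites run in chromosome order from chr9:7272459-7272505 for *Mmp13* to chr9:7692007-7692053 for *Mmp7*, all on the plus strand except *Mmp1b*.
Mmp13: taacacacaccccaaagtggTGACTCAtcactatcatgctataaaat
Mmp12: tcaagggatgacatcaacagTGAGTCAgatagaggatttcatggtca
Mmp1b: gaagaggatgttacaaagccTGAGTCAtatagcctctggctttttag
Mmp3: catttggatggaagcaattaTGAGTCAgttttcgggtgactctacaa
Mmp1a: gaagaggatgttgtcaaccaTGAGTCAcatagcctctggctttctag
Mmp10: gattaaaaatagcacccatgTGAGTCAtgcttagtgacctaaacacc
Mmp20: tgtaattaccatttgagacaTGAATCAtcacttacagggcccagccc
Mmp7: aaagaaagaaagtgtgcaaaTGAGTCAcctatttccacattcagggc

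*Mmp1a* and *Mmp1b* are closely alike, as are *Mmp3* and *Mmp10*, so their probe sets may share signal and the values of these genes are uncertain. *Mmp12* has 2 windows in the table, for 2 transcript starts, and only the downstream one, chr9:7347124-7347423 on the plus strand, holds the AP-1 letters, 44 bases before the start. That window is printed whole, with the AP-1 letters in capitals, since *Mmp12* is the gene of the cluster that rose.
Mmp12: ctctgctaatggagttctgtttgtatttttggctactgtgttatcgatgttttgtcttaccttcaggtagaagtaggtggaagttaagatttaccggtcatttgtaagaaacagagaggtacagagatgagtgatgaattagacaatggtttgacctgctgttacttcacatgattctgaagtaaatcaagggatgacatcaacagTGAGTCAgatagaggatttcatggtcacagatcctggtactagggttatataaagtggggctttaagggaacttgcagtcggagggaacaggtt
A second motif, the ETS core AGGAAG known as PEA3, was found in 13 of 29 family windows and in 35.4% of all windows. The window of *Adamts1*, chr16:85803064-85803363 on the minus strand, held neither motif. A match here is a run of letters, not a bound site.

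*Mmp12*, which encodes the macrophage metalloelastase that cuts elastin, was the gene of the family that changed most, with group means that spanned 2.89 on the log2 scale. In the 5 *BRAF*(-) AT its probe set (10583056) read 5.34, 5.42, 5.46, 5.48 and 5.62. In the 4 *BRAF*(-) BHL it read 5.25, 5.72, 5.80 and, in M_764, 8.01. Apart from M_764, no *BRAF*(-) thyroid passed 5.80.

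The 5 *BRAF*(+) AT read 5.67, 6.51, 8.05, 8.07 and 8.79, and the 4 *BRAF*(+) BHL 7.55, 7.92, 8.28 and 8.56. BL had a lowest signal of 6.51, a median of 8.17 and a highest of 8.49, and PTC had 7.42, 8.32 and 9.22. Every BL and PTC mouse thus lay above all 5 *BRAF*(-) AT, and so did every *BRAF*(+) AT, although M_779 did so by a small margin. Of all probe sets, 2.49% had no overlap with *BRAF*(-) AT in BL, 5.27% in PTC and 1.76% in *BRAF*(+) AT. The group means in rising order were *BRAF*(-) AT, *BRAF*(-) BHL, *BRAF*(+) AT, BL, *BRAF*(+) BHL and PTC, and the last 4 groups overlapped throughout.

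**Figure D1:**
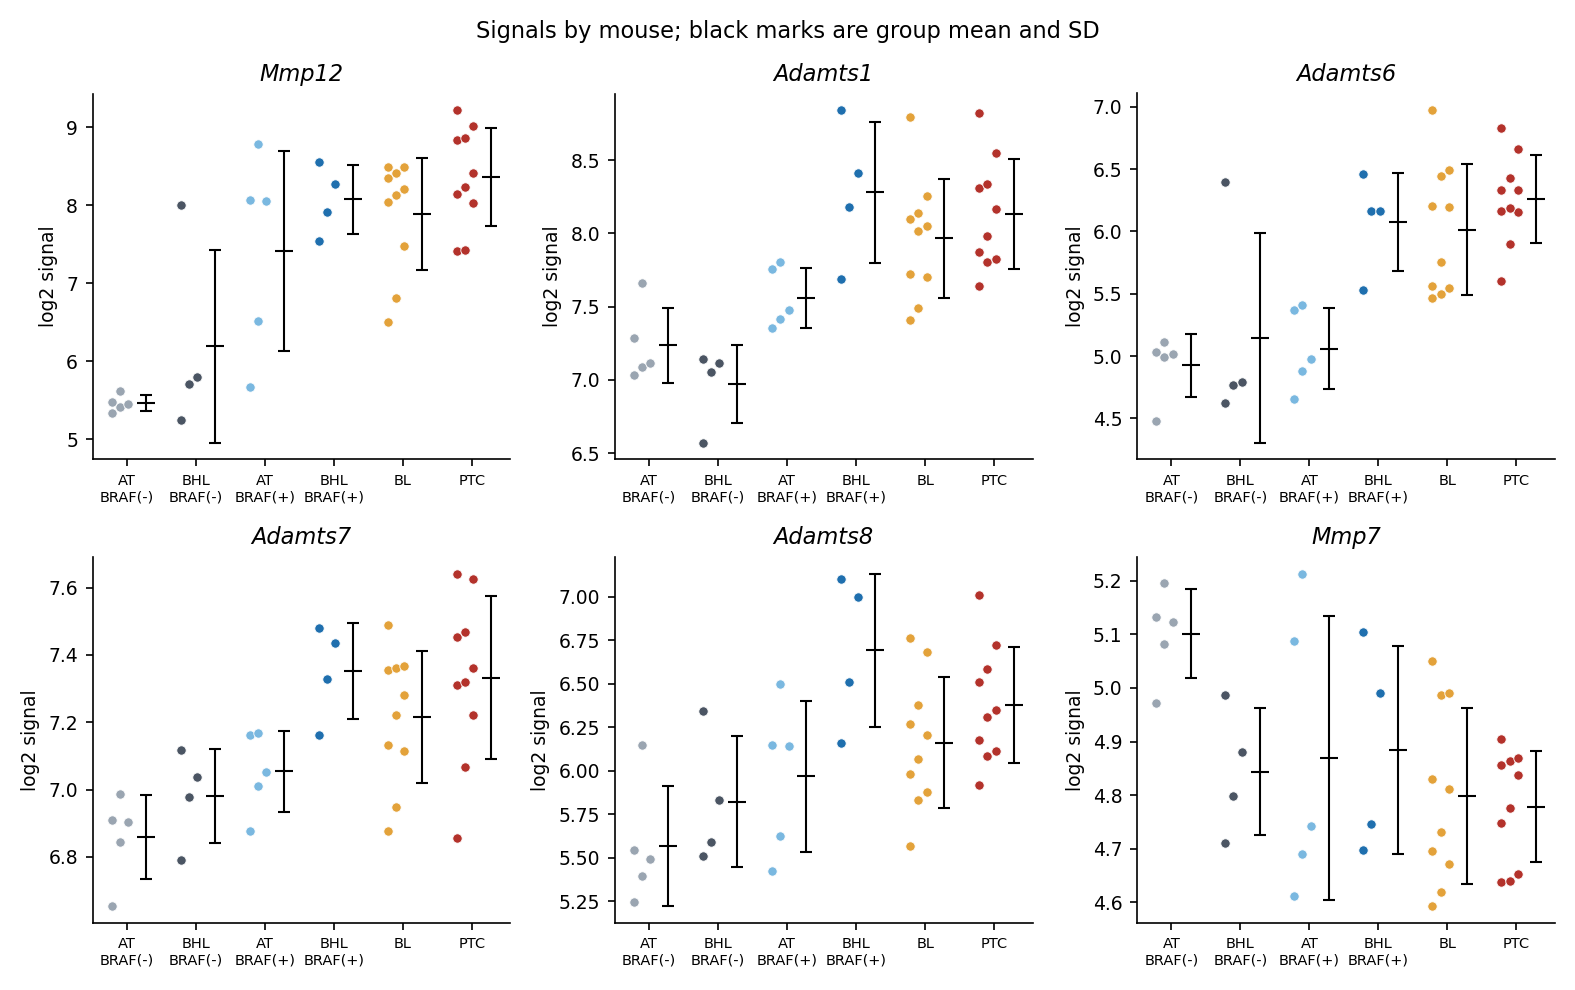
Log2 signals (vertical axes) of *Mmp12*, *Adamts1*, *Adamts6*, *Adamts7*, *Adamts8* and *Mmp7* in the 6 groups, 1 coloured point per mouse, with the group mean and SD as black marks. The 5 *BRAF*(-) AT lie between 5.34 and 5.62 for *Mmp12*, under every PTC, and *Mmp7* runs the other way within a range of less than 1 log2 unit.

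The first comparison asks which family members differ between the 9 *BRAF*(+) and the 9 *BRAF*(-) non-malignant thyroids. Here 3 of the 40 genes (7.5%) were called, all higher in *BRAF*(+) mice: *Mmp12*, *Adamts1*, which encodes a protease of versican and aggrecan, and *Adamts7*, which encodes a COMP-cleaving protease. Over all probe sets, 4.1% were called and 2.19% were called higher. At an unadjusted p under 0.05, 9 of the 40 genes were higher and 0 lower, beside 8.19% and 8.16% of all probe sets.

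*Mmp12* was higher by 1.88 ± 0.38 (SE, 9 and 9 mice), a 3.68-fold difference with an adjusted p of 0.00979. The call held without each of the 18 mice in turn, with differences from 1.71 to 2.14, and the difference was 2.14 without M_764. It was lost among females alone (1.82 ± 0.48, adjusted p = 0.0629) and with skeletal muscle and adipocyte scores as covariates (2.42 ± 0.66, adjusted p = 0.195).

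The median of the macrophage list moved in the same direction as *Mmp12* to a smaller extent, but not every gene of the list did. Among BHL its median difference was 0.34, with 0 of 14 genes called higher in *BRAF*(+) mice and 1 called lower. Across the 18 non-malignant mice 0 of its 14 genes were called by limma, with a median difference of 0.38. In PTC against *BRAF*(-) AT 7 of 14 were called higher, with a median of 0.50. The mean signal of the list was 7.22 to 8.14 in *BRAF*(-) AT, 7.28 to 8.61 in *BRAF*(-) BHL, 7.60 to 8.77 in *BRAF*(+) AT, 8.00 to 8.53 in *BRAF*(+) BHL, 8.09 to 8.57 in BL and 7.65 to 8.55 in PTC.

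A fit with the macrophage score as a covariate was chosen after seeing the data. In it *Mmp12* differed by 1.39 ± 0.35 (adjusted p = 0.0403) with *BRAF* status in non-malignant thyroids. Between PTC and *BRAF*(-) AT it differed by 2.14 ± 0.41 (adjusted p = 0.000767). Among *BRAF*(-) mice, M_946 had the highest macrophage level, 8.61, with *Mmp12* at 5.72, and M_764 had 8.18 with *Mmp12* at 8.01. The *BRAF*(+) AT with the lowest *Mmp12*, M_779, also had the lowest macrophage level of the *BRAF*(+) mice, 7.60. The part of macrophages in the *Mmp12* differences was not tested otherwise.

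**Figure D2:**
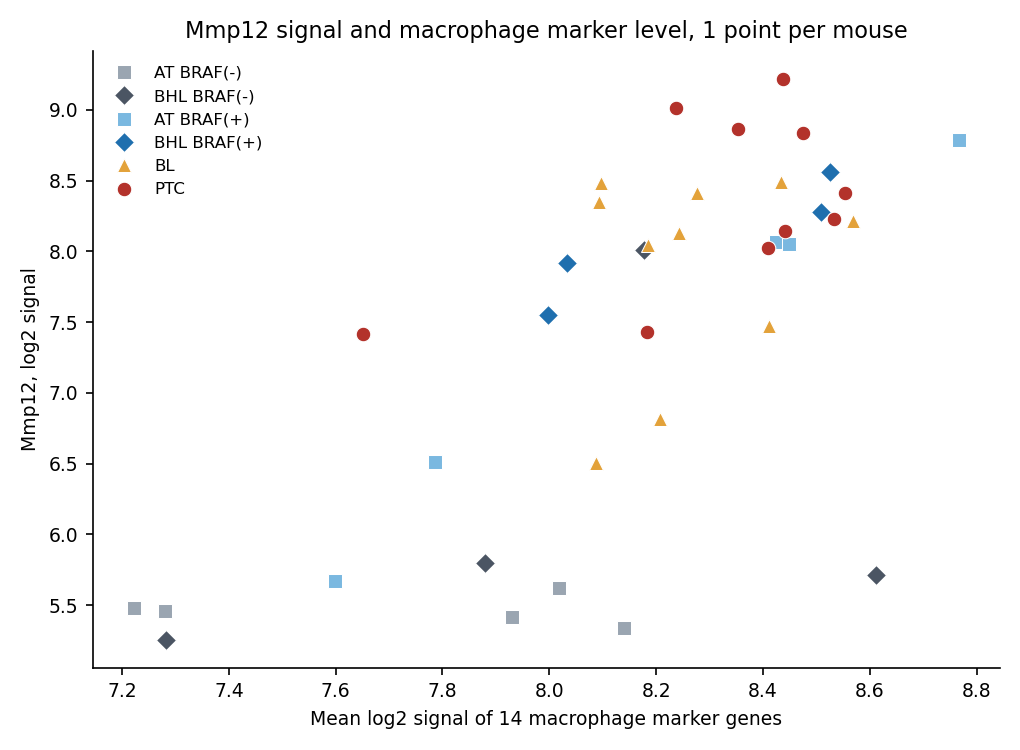
Log2 signal of *Mmp12* (vertical) against the mean log2 signal of 14 macrophage marker genes (horizontal), 1 point per mouse, coloured by group. *BRAF*(-) mice have macrophage levels up to 8.61 and *Mmp12* under 6, except M_764 at 8.01. In *BRAF*(+) mice *Mmp12* runs from 5.67, in M_779, to 9.22.

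*Adamts1* (probe set 10440522) read 7.03 to 7.66 in *BRAF*(-) AT, 6.57 to 7.14 in *BRAF*(-) BHL, 7.36 to 7.80 in *BRAF*(+) AT and 7.69, 8.18, 8.41 and 8.84 in the *BRAF*(+) BHL. The difference over the 18 mice was 0.75 ± 0.18, 1.68-fold, with an adjusted p of 0.0245. M_771, at 7.66, was the *BRAF*(-) mouse that lay inside the *BRAF*(+) range. The call was lost without M_764 or M_930, both *BRAF*(-) BHL, with adjusted p up to 0.0551, with age as a covariate (adjusted p = 0.0603), with an ordinary linear model (0.0556) and with muscle and adipocyte scores (0.18 ± 0.28, adjusted p = 0.925).

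*Adamts7* moved less: its signals ran from 6.65 to 7.12 in the *BRAF*(-) and from 6.88 to 7.48 in the *BRAF*(+) non-malignant mice. The difference was 0.29 ± 0.07 (adjusted p = 0.0295). It lost its call without any of 7 mice (M_701, M_930, M_940, M_943, M_948, M_958 or M_997), with adjusted p up to 0.07, among females (0.196), with the macrophage score (0.102) and with muscle and adipocyte scores (0.604).

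The adipocyte list moved against these genes: 5 of its 9 measured genes were lower in *BRAF*(+) non-malignant thyroids, with a median of -0.67, and its mean signal was 8.93 to 9.56 and 8.70 to 9.62 in *BRAF*(-) AT and BHL but 8.15 to 9.05 and 7.67 to 8.78 in *BRAF*(+) AT and BHL. Skeletal muscle markers, 0 of 13 called, had a median difference of -1.24. Their mean signal was high in 2 *BRAF*(-) mice, M_940 (10.0) and M_764 (9.81), and lay at 5.35 to 5.82 in the other 7 and at 5.37 to 5.60 in the *BRAF*(+) non-malignant mice. The fits with muscle and adipocyte scores are given beside each gene, and the part of these cells in the differences was not tested otherwise.

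Of the signature genes that the study chose on these mice and also identified on its human array, 4 belong to the family: *Mmp12*, *Mmp13*, *Adamts1* and *Adamts8*. That choice is not independent evidence of their direction. In the limma fit *Adamts8*, which encodes another aggrecan-cleaving protease, missed the threshold across the non-malignant mice (0.57 ± 0.17, adjusted p = 0.0636). The collagenase gene *Mmp13* missed it too (0.30 ± 0.12, adjusted p = 0.185). These p values were adjusted over all probe sets, whereas the study removed probe sets that varied little between mice before its test. Both genes pass that filter. Because the adjustments differ, these values cannot decide whether the study's choice of the genes is reproduced.

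The 2 kinds of non-malignant lesion were then taken apart. Among AT, 0 of 40 genes were called by limma or by an ordinary linear model, beside 0.256% of all probe sets. At an unadjusted p under 0.05 there were 3 of the 40 (7.5%), beside 9.67% of all probe sets. *Mmp12* was higher there by 1.93 ± 0.49 (adjusted p = 0.0823), with 5 of 5 *BRAF*(+) mice above 5 of 5 *BRAF*(-) mice, a lack of overlap found in 1.76% of all probe sets. *Adamts1* differed by 0.27 ± 0.21 and *Adamts6*, a little-studied relative, by 0.06 ± 0.27.

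Among BHL, 4 of 40 genes (10%) were called, all higher in *BRAF*(+) mice, beside 6.62% of all probe sets called and 2.98% called higher. *Adamts1* differed most clearly, by 1.31 ± 0.23 (2.48-fold, adjusted p = 0.000487), and kept its call without each of the 8 mice. *Mmp12* followed with 1.88 ± 0.54 (adjusted p = 0.0277), which was lost without M_701, M_930, M_943, M_946 or M_958, with adjusted p up to 0.115, among females (1.41 ± 0.66, adjusted p = 0.255) and with muscle and adipocyte scores (1.87 ± 0.63, adjusted p = 0.119). Without M_764 the difference was 2.48 ± 0.52 (adjusted p = 0.00331).

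*Adamts8* read 5.51, 5.59, 5.83 and 6.35 in *BRAF*(-) BHL and 6.16, 6.51, 7.00 and 7.10 in *BRAF*(+) BHL, a difference of 0.87 ± 0.24 (adjusted p = 0.0185). *Adamts16*, whose product has been tied to renal and gonadal development, read 6.04, 6.04, 6.39 and 7.05 against 7.05, 7.20, 7.27 and 7.30, a difference of 0.83 ± 0.25 (adjusted p = 0.0342). In each of these genes the groups touched or overlapped at 1 mouse. The *Adamts8* call was lost without M_942, M_943 or M_946 (adjusted p up to 0.0768), and that of *Adamts16* held only without M_701 (adjusted p up to 0.107 for the other 7). Both were lost with muscle and adipocyte scores (0.0966 and 0.112), *Adamts8* also among females (0.0644), and *Adamts16* with array weights (0.0891) and with age (0.0673).

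The difference between BHL and AT in the response to the transgene was itself tested. It gave 0 calls among the 40 genes and 0% of all probe sets, by limma and by an ordinary linear model, with 3 genes (7.5%) at an unadjusted p under 0.05, beside 10.2% of all probe sets. These were *Adamts1* (1.04 larger in BHL, 95% interval 0.42 to 1.67, adjusted p = 0.298), *Adamts16* (0.84, adjusted p = 0.391) and *Adamts6* (0.87, adjusted p = 0.46). For *Mmp12* the effects differed by -0.05, with an interval of -1.52 to 1.43. Lesion type without the transgene, *BRAF*(-) BHL against *BRAF*(-) AT, also gave 0 calls by either tool and 0% of all probe sets, with *Mmp7* and *Adamts14* lower at an unadjusted p under 0.05.

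**Figure D3:**
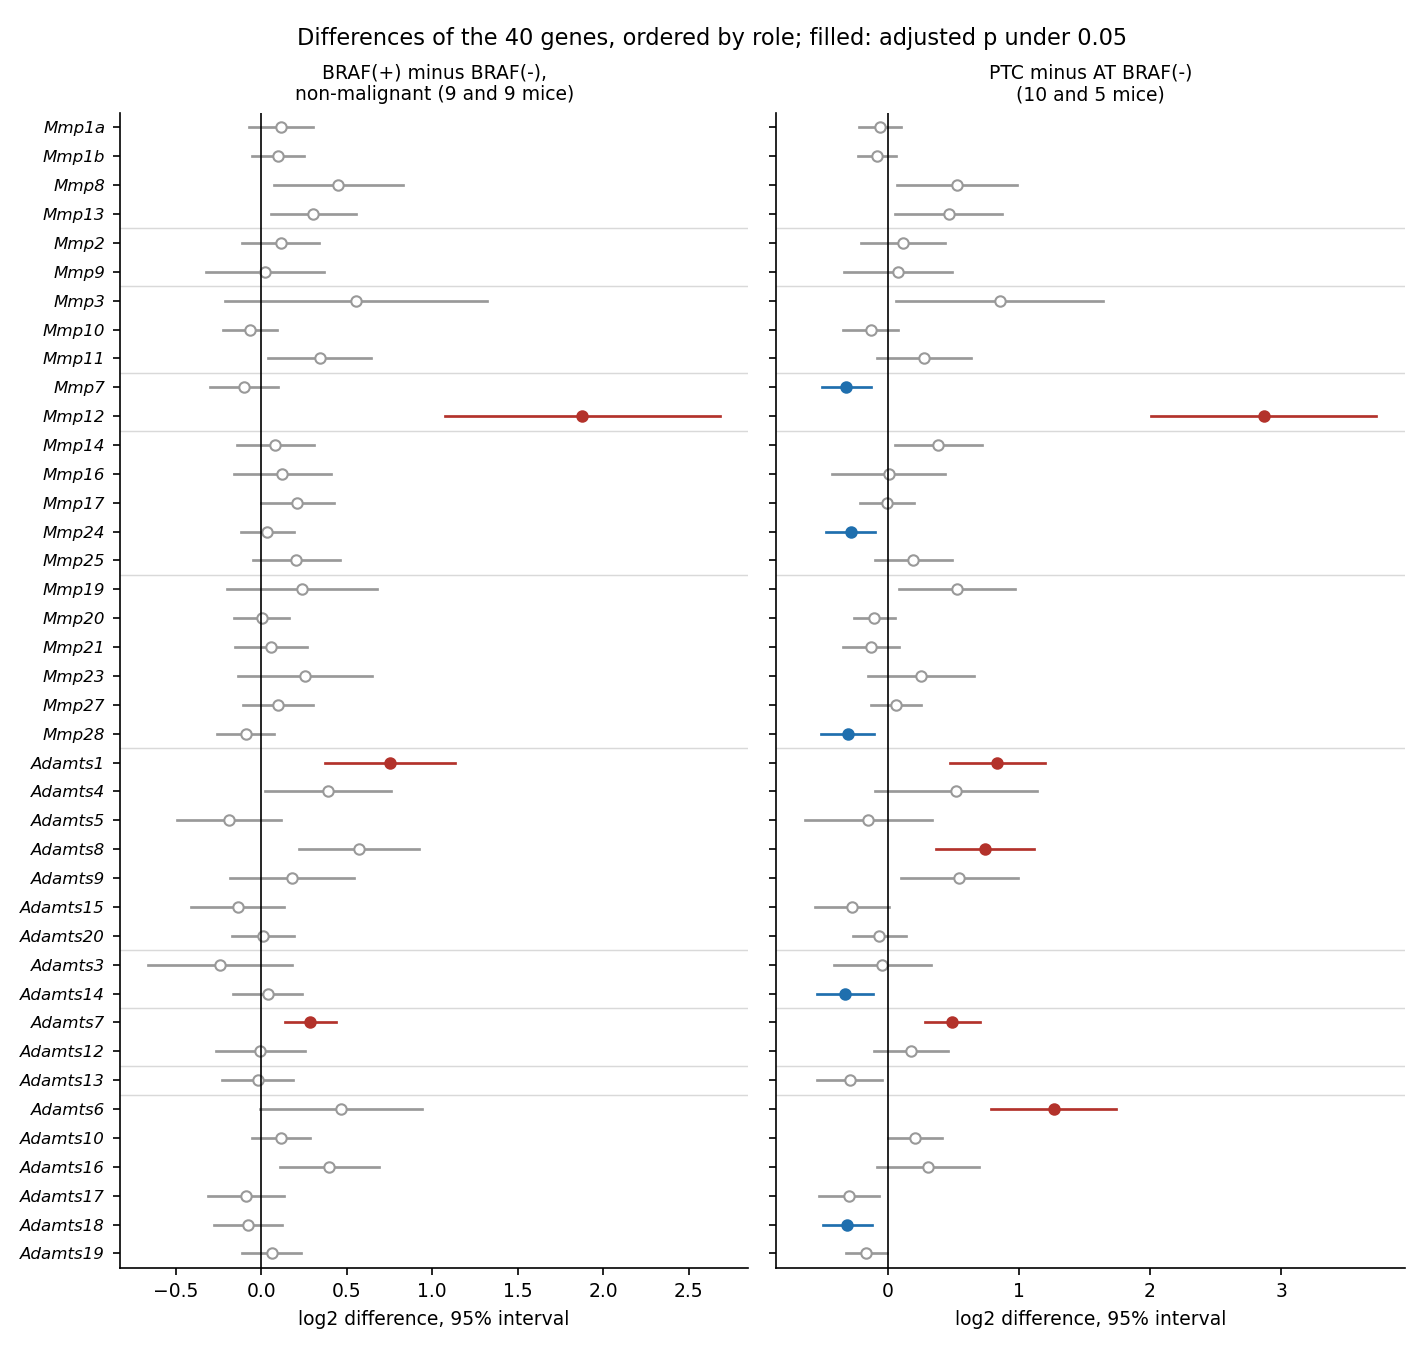
Log2 differences of the 40 genes with their 95% intervals (horizontal axes) for *BRAF*(+) minus *BRAF*(-) non-malignant thyroids, left, and PTC minus *BRAF*(-) AT, right; genes are ordered by role and filled points have an adjusted p under 0.05. The left panel has 3 filled points, all to the right of 0, and the right panel has 5 on each side, those on the lower side lying between -0.33 and -0.28.

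The carcinomas were compared with thyroids that had neither lesion nor transgene RNA. Of the 40 genes, 10 (25%) were called in PTC against *BRAF*(-) AT, beside 18.8% of all probe sets. Higher were *Mmp12*, *Adamts1*, *Adamts6*, *Adamts7* and *Adamts8* (5 genes, 12.5%, beside 9.8%). Lower were *Mmp7*, *Mmp24*, *Mmp28*, *Adamts14* and *Adamts18* (5 genes, 12.5%, beside 9.01%). The median over the 40 genes was 0.07, beside -0.02 over all probe sets. In the same comparison 6 of 9 adipocyte genes (median -1.02) and 4 of 9 thyroid follicular genes (median -0.31) were called lower and 7 of 14 macrophage genes higher.

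*Mmp12* was higher in PTC by 2.87 ± 0.42 (10 and 5 mice), which is 7.30-fold, with an adjusted p of 1.55e-05, and *Adamts1* by 0.83 ± 0.18 (adjusted p = 0.00136). *Adamts7* was higher by 0.49 ± 0.10 (adjusted p = 0.00107) and *Adamts8* by 0.74 ± 0.18 (adjusted p = 0.00486). These 4 calls and that of *Adamts6* held without each of the 15 mice.

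*Adamts6* (probe set 10406982) was low in both kinds of AT. Its signals were 4.48, 4.99, 5.02, 5.03 and 5.11 in *BRAF*(-) AT and 4.66, 4.88, 4.98, 5.37 and 5.41 in *BRAF*(+) AT. In *BRAF*(-) BHL it read 4.62, 4.77, 4.79 and, in M_946, 6.40. The *BRAF*(+) lesions read 5.53 to 6.46 in BHL, 5.46 to 6.97 in BL and 5.61 to 6.83 in PTC.

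Every PTC mouse therefore lay above every AT, with or without the transgene RNA, and every BL mouse lay above every *BRAF*(-) AT. Over all probe sets, 5.27% had no overlap between PTC and *BRAF*(-) AT, 2.49% between BL and *BRAF*(-) AT and 3.84% between PTC and *BRAF*(+) AT. The difference between PTC and *BRAF*(-) AT was 1.26 ± 0.23 (2.40-fold, adjusted p = 0.000315), and between PTC and *BRAF*(+) AT 1.20 ± 0.23 (2.30-fold, adjusted p = 0.00235). Both calls held under every alternative run and without each mouse of the groups compared. In BHL the difference was 0.93 ± 0.30 and missed the threshold (adjusted p = 0.0541). M_946, the *BRAF*(-) exception, also had the highest macrophage level of the *BRAF*(-) mice, 8.61, and a lymphocyte list level of 8.69, against 5.03 to 5.36 in the other *BRAF*(-) mice. Their part in its *Adamts6* signal was not tested.

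The 5 lower genes moved little. *Mmp7*, which encodes matrilysin, the smallest MMP, read 4.97, 5.08, 5.12, 5.13 and 5.20 in *BRAF*(-) AT and 4.64 to 4.90 in PTC, with no overlap (as in the 5.27% of all probe sets given above) and a difference of -0.32 ± 0.09 (adjusted p = 0.0142). *Adamts14*, a procollagen N-proteinase gene, read 5.71 to 5.97 against 5.26 to 5.60, a difference of -0.33 ± 0.11 (adjusted p = 0.0277). *Mmp24*, for a membrane-type MMP of the nervous system, differed by -0.28 ± 0.09 (adjusted p = 0.0292).

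*Mmp28* (epilysin), which is bright enough not to count among the dim genes, differed by -0.30 ± 0.10 (adjusted p = 0.0299), and *Adamts18* by -0.31 ± 0.09 (adjusted p = 0.0199). The other 4 were among the 20 genes with a mean under 6, where 6.78% of all such probe sets were called lower and the median of all of them was -0.06. Their calls were fragile: that of *Mmp7* was lost without M_940 (adjusted p = 0.0567), *Adamts14* without M_524 or M_956 (up to 0.0779), *Adamts18* without M_524 or M_940 (up to 0.0815), *Mmp24* without M_524, M_700, M_771 or M_940 (up to 0.104) and *Mmp28* without M_524, M_700, M_940 or M_956 (up to 0.0868). All 5 calls were also lost among females alone and with the macrophage score. The count of 10 genes became 6 without M_524 or M_940.

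BL were set against the same 5 *BRAF*(-) AT mice as PTC. There 8 of 40 genes (20%) were called, beside 11.5% of all probe sets. Higher were *Mmp12* (2.40 ± 0.42, adjusted p = 0.000382), *Adamts6* (1.02 ± 0.23, adjusted p = 0.00504), *Adamts1* (0.67 ± 0.18, adjusted p = 0.0139) and *Adamts7* (0.37 ± 0.10, adjusted p = 0.0169), 4 genes beside 6.05% of all probe sets.

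Lower in BL were *Mmp28* (-0.35 ± 0.10), *Mmp7* (-0.30 ± 0.09), *Mmp24* (-0.28 ± 0.09) and *Adamts18* (-0.28 ± 0.09), with adjusted p from 0.0195 to 0.0454, 4 genes beside 5.41%. *Mmp12* and *Adamts6* kept their calls without each mouse; *Adamts1* lost its call without M_940 or M_956 (up to 0.0662) and with muscle and adipocyte scores (0.0571), and *Adamts7* without M_940 (0.0781), among females (0.104), with those scores (0.0826) and with the macrophage score (0.104). All 4 lower genes lost their calls among females, with muscle and adipocyte scores and with the macrophage score. The calls of the lower genes were lost without M_524, M_940 or M_956 for *Mmp28*, and without those or M_80 or M_360 for *Mmp7*. That of *Mmp24* held only without M_416, M_528, M_649, M_956 or M_957 and that of *Adamts18* only without M_527, M_530, M_649, M_956, M_957 or M_1005. The count fell to 2 without M_940, to 4 without M_524 and to 5 without M_80 or M_360.

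The comparison of PTC with BL gave no calls. Of the 40 genes 0 were called by limma or by an ordinary linear model, and 0 reached an unadjusted p under 0.05, beside 0% of all probe sets called. The differences ran from -0.27 (*Mmp9*) to 0.47 (*Mmp12*, 95% interval -0.23 to 1.16), and for *Adamts6* the interval was -0.14 to 0.63.

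PTC was also set against *BRAF*(+) AT, where both sides express the transgene. Of the 40 genes 7 were called, beside 14.9% of all probe sets. Higher were *Adamts6*, *Adamts1* (0.57 ± 0.18, adjusted p = 0.0281), *Mmp14* and *Adamts12*, 4 genes beside 8.49% of all probe sets. Lower were *Mmp24*, *Mmp1b* and *Adamts14*, 3 genes beside 6.44%. *Mmp12* differed by 0.94 ± 0.42 and missed the threshold (adjusted p = 0.115).

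*Mmp14*, for the membrane-anchored collagenase that activates MMP2, read 8.06, 8.28, 8.30, 8.45 and 8.57 in *BRAF*(+) AT and 8.28 to 9.65, with a median of 8.92, in PTC. The difference was 0.54 ± 0.16 (1.45-fold, adjusted p = 0.024). *Adamts12*, for the other COMP-cleaving protease, read 6.85 to 7.22 against 6.72 to 7.99, a difference of 0.40 ± 0.14 (adjusted p = 0.0441). Against *BRAF*(-) AT the same genes differed by 0.39 (adjusted p = 0.0918) and 0.18 (adjusted p = 0.385).

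The lower genes were *Mmp24* (-0.31 ± 0.09, adjusted p = 0.0206), *Adamts14* (-0.30 ± 0.10, adjusted p = 0.0458) and *Mmp1b* (-0.23 ± 0.07, adjusted p = 0.0257). *Mmp1b* read 2.99 to 3.26 in PTC, inside the range of Y-linked genes in females, and its call was lost without M_779 (3.67, the highest AT), with adjusted p of 0.161. M_779, the only mouse of its founder line among the *BRAF*(+) AT, had the largest effect here, since the count was 1 without it and 4 without M_945 or M_948. The part of founder line in this was not tested. *Mmp14* was lost without M_779 or M_948 (up to 0.0732), *Adamts1* without M_779 or M_945 (up to 0.0899) and *Mmp24* without M_523 or M_779 (up to 0.0681). *Adamts12* held only without M_347, M_523, M_700 or M_1002 and *Adamts14* only without M_348, M_364, M_415 or M_884. Among females the calls of *Mmp14* (0.0551), *Mmp24* (0.0885) and *Adamts14* (0.231) were lost. *Mmp14* also lost its call with no sex term (0.056), *Adamts12* with median-centred arrays (0.0551) and with muscle and adipocyte scores (0.0547), and *Adamts14* with an intensity trend (0.0506) and with the macrophage score (0.0516).

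**Figure D4:**
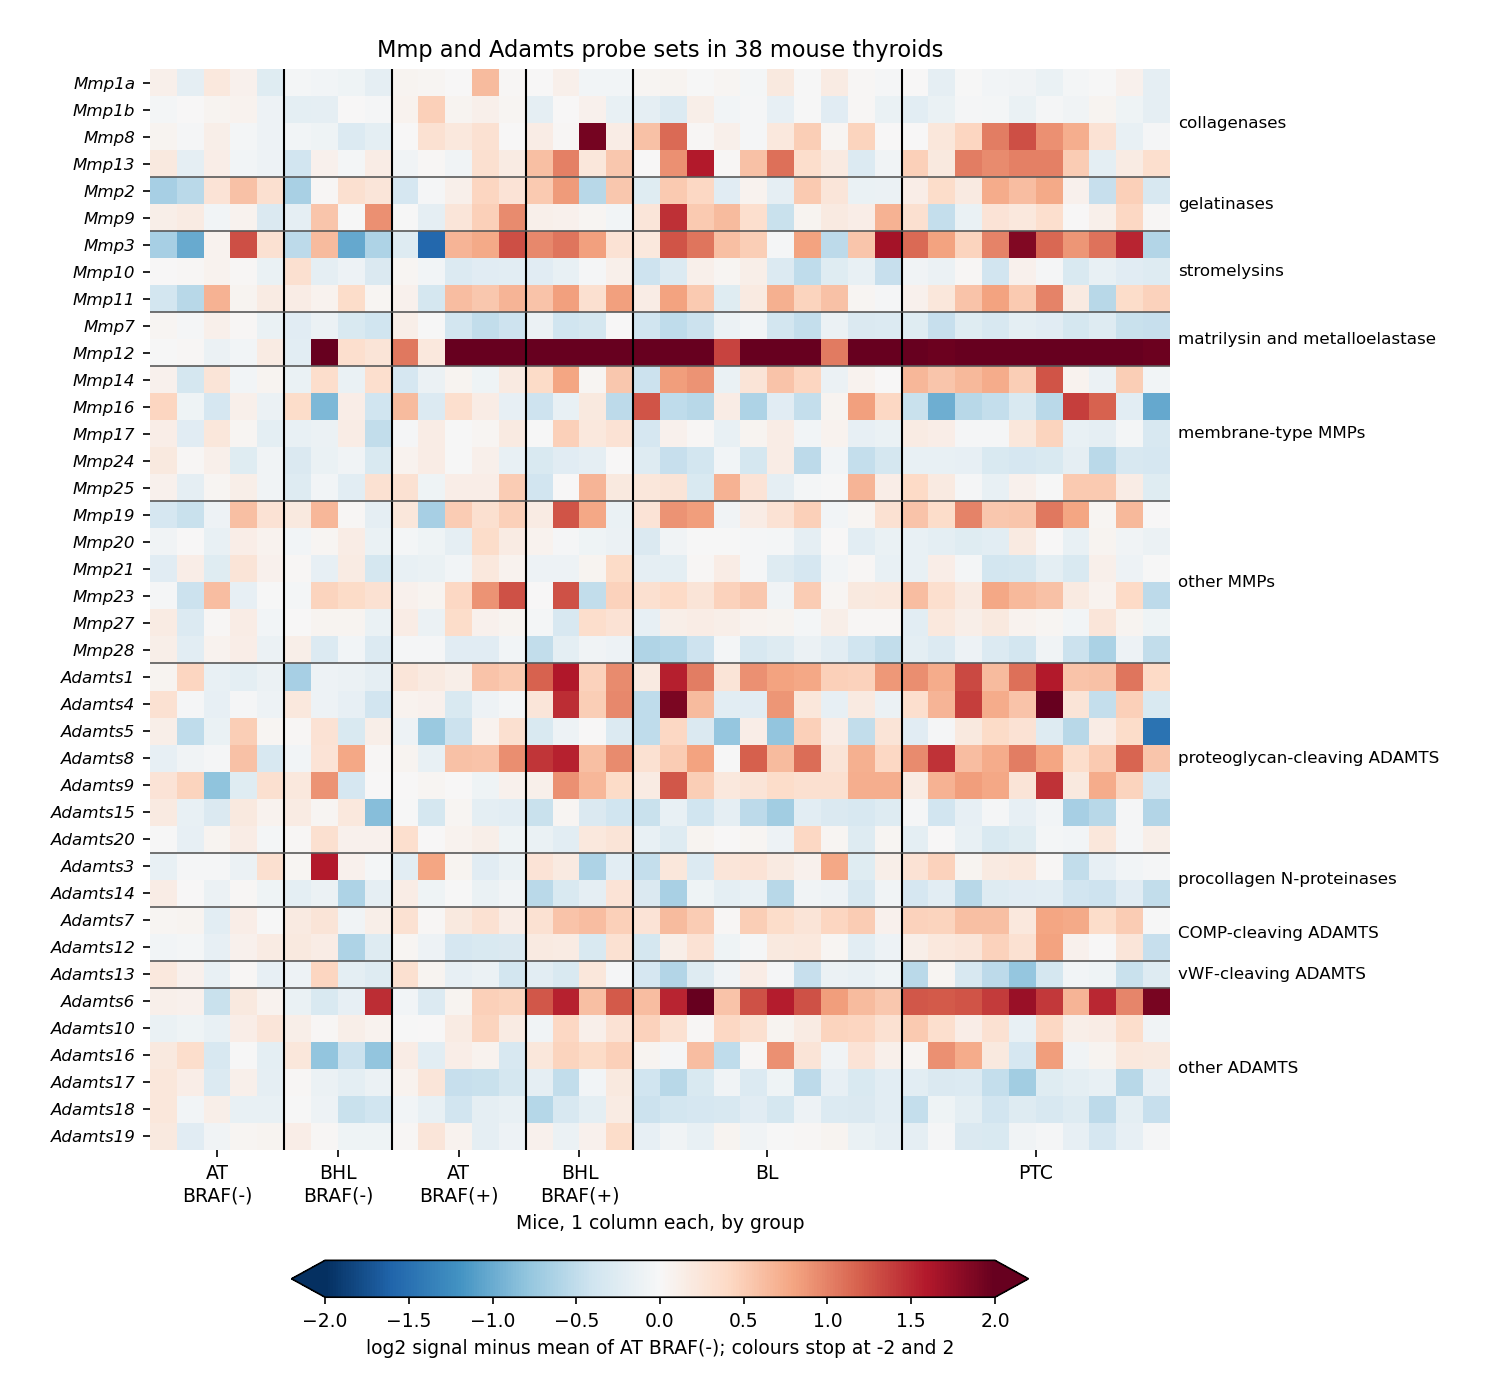
Log2 signal minus the mean of the *BRAF*(-) AT for the 40 genes (rows, by role) in the 38 mice (columns, by group), with colours stopped at -2 and 2. The *Mmp12* row is dark red in most *BRAF*(+) mice and in M_764, the second *BRAF*(-) BHL column. *Adamts6* is red in the *BRAF*(+) lesions and in M_946, the last *BRAF*(-) BHL column, but not in AT. Most other rows stay paler.

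By role, the collagenase, gelatinase and stromelysin genes gave no calls except that of *Mmp1b*, lower in PTC against *BRAF*(+) AT. Of the 4 collagenase genes (*Mmp1a*, *Mmp1b*, *Mmp8*, *Mmp13*), the 2 gelatinase genes and the 3 stromelysin genes (*Mmp3*, *Mmp10*, *Mmp11*), 0 were called in the non-malignant comparison or in PTC against *BRAF*(-) AT. The gelatinases *Mmp2* and *Mmp9*, which degrade basement membrane collagen, differed by 0.12 and 0.08 in PTC. The collagenases ranged from -0.08 (*Mmp1b*) to 0.53 (*Mmp8*, the neutrophil collagenase, adjusted p = 0.0943), and the stromelysins from -0.13 (*Mmp10*) to 0.85 (*Mmp3*, adjusted p = 0.119).

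*Mmp3* varied more than most of the family between mice of 1 group, from 5.11 to 7.41 in *BRAF*(-) AT and from 5.53 to 7.96 in PTC. *Mmp13* read 4.83 to 5.21 in *BRAF*(-) AT and 4.82 to 6.04 in PTC, and differed by 0.46 ± 0.20 (adjusted p = 0.103). In the chromosome 9 cluster, 1 of the 10 genes rose in PTC against *BRAF*(-) AT, *Mmp12*, and 1 fell, *Mmp7*. The shares of all probe sets were 9.8% and 9.01%. Both genes carry the AP-1 letters shown above, as do *Mmp3*, *Mmp10* and *Mmp13*, which were not called there.

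Of the 5 membrane-type MMP genes, *Mmp14*, *Mmp16*, *Mmp17*, *Mmp24* and *Mmp25*, 1 was called lower in PTC, and the range was -0.28 (*Mmp24*) to 0.39 (*Mmp14*). The other MMP genes, *Mmp19*, *Mmp20*, *Mmp21*, *Mmp23*, *Mmp27* and *Mmp28*, ran from -0.30 (*Mmp28*, the 1 called) to 0.53 (*Mmp19*, adjusted p = 0.0868). *Mmp27* and *Mmp20* had the narrowest spans of group means in the family, 0.11 and 0.14.

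Among the proteoglycan-cleaving genes (*Adamts1*, *Adamts4*, *Adamts5*, *Adamts8*, *Adamts9*, *Adamts15*, *Adamts20*), 2 of 7 rose in PTC, *Adamts1* and *Adamts8*, and the range was from -0.27 (*Adamts15*) to 0.83. *Adamts4* differed by 0.52 ± 0.31 (adjusted p = 0.234) and *Adamts5* by -0.15 (adjusted p = 0.701); these 2 encode the main aggrecanases of cartilage. *Adamts1* and *Adamts5* are direct neighbours in the RefSeq gene order, as are *Adamts8* and *Adamts15*, and in each pair the former rose and the latter was not called. *Adamts9* has 6 probe sets, of which 1 was called in PTC, and the 1 that stands for it was not (0.55, adjusted p = 0.077). *Adamts3*, a procollagen N-proteinase gene, has 16 probe sets, with 0 called in either comparison.

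*Adamts13*, for the protease of von Willebrand factor, differed by -0.29 in PTC (adjusted p = 0.0934). The remaining genes, *Adamts6*, *Adamts10*, *Adamts16*, *Adamts17*, *Adamts18* and *Adamts19*, ran from -0.31 (*Adamts18*) to 1.26 (*Adamts6*), with 1 called in each direction.

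Over all 6 groups the F test of limma called 6 of the 40 genes (15%), beside 18.1% of all probe sets: *Mmp12*, *Adamts1*, *Adamts6*, *Adamts7*, *Adamts8* and *Mmp24*. The median span of the group means was 0.36 for the family and 0.32 for all probe sets. The spans of 5 genes (12.5%) exceeded 1 log2 unit, beside 4.94% of all probe sets. These were *Mmp12*, *Adamts6* (1.33), *Adamts1* (1.31), *Mmp3* (1.31) and *Adamts8* (1.13).

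The regulators of these proteases were read from lists that were drawn up with earlier results of these data known. For the counts that follow, the shares of all probe sets called higher and lower were 2.19% and 1.91% in the non-malignant comparison. They were 9.8% and 9.01% in PTC against *BRAF*(-) AT and 2.98% and 3.64% among BHL. Among 7 measured inhibitors, 2 rose in *BRAF*(+) non-malignant thyroids and in PTC: *Timp1*, for a soluble inhibitor of most MMPs, by 1.26 ± 0.30 (adjusted p = 0.0232) and 2.12 ± 0.41 (adjusted p = 0.000501), and *Timp3*, for the matrix-bound inhibitor that also blocks ADAMTS enzymes, by 0.40 ± 0.09 and 0.31 ± 0.11. *Timp4* was lower in *BRAF*(+) than in *BRAF*(-) BHL (-1.51 ± 0.40, adjusted p = 0.0161). *Timp1* thus moved in the direction of *Mmp12*.

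Among 8 activators, 2 rose in the non-malignant comparison. *Plaur*, the urokinase receptor gene, was higher by 0.94 ± 0.16 (adjusted p = 0.00287) and *Pcsk5*, for a proprotein convertase, by 1.14 ± 0.22 (adjusted p = 0.0067). In PTC the values were 1.12 ± 0.20 and 1.42 ± 0.23. *Plat*, for tissue plasminogen activator, also rose in PTC (0.74 ± 0.24), and *Plg*, for plasminogen itself, fell (-0.21 ± 0.08). *Plaur* is among the genes that the study chose on the non-malignant mice, so its call there is not independent evidence.

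Of the 6 ADAMTS-like genes, whose products lack the protease domain and bind fibrillin microfibrils, 1 rose and 1 fell in both comparisons. *Adamtsl2* was higher by 1.61 ± 0.25 (adjusted p = 0.00171) in *BRAF*(+) non-malignant thyroids and by 1.98 ± 0.30 (adjusted p = 2.07e-05) in PTC. *Thsd4* differed by -0.41 ± 0.10 and -0.69 ± 0.11. Of 8 membrane ADAMs, which shed cell surface proteins, 0 were called across the 18 non-malignant mice, 1 rose among BHL (*Adam9*, 0.40 ± 0.12) and 5 rose in PTC, led by *Adam12* (0.79 ± 0.21), *Adam8* (0.67 ± 0.21), *Adam9* (0.51 ± 0.09) and *Adam10* (0.45 ± 0.11).

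Among 15 measured substrates, *Fn1* (fibronectin) was higher in *BRAF*(+) than in *BRAF*(-) non-malignant thyroids, by 0.90 ± 0.19 (adjusted p = 0.0134). *Fn1* and *Comp* are among the genes that the study chose on the non-malignant mice, so their direction there is not independent evidence. In PTC 3 rose and 2 fell: *Vcan*, the versican that *Adamts1* cleaves, by 1.68 ± 0.27 (adjusted p = 5.72e-05), *Fn1* by 1.27 ± 0.24 and *Col4a2* by 0.46 ± 0.16, whereas *Ncan* (-0.55 ± 0.16) and *Col2a1* (-0.35 ± 0.09) were lower. *Comp*, the substrate of *Adamts7* and *Adamts12*, was higher in *BRAF*(+) than in *BRAF*(-) BHL by 2.43 ± 0.72 (adjusted p = 0.0341). In that comparison 2 of 11 cartilage genes, *Comp* and *Col9a1*, were called higher, and the cartilage list averaged 5.62 to 5.87 in *BRAF*(-) and 5.87 to 6.63 in *BRAF*(+) BHL; its part in the result was not tested.

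**Figure D5:**
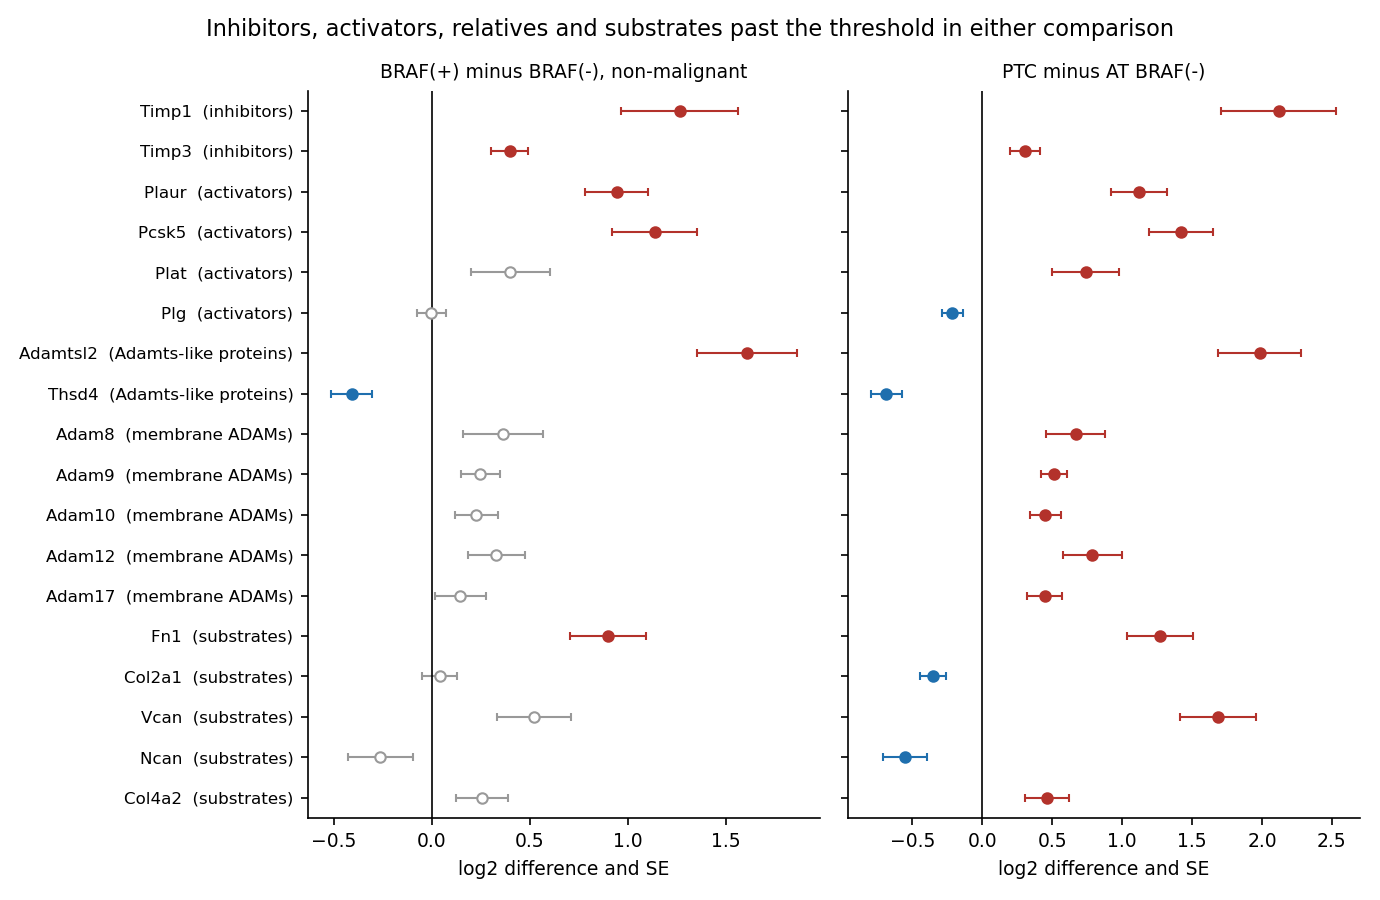
Log2 differences with SE (horizontal axes) of the inhibitor, activator, ADAMTS-like, membrane ADAM and substrate genes past the threshold in either of 2 comparisons, *BRAF*(+) minus *BRAF*(-) non-malignant thyroids, left, and PTC minus *BRAF*(-) AT, right; filled points have an adjusted p under 0.05. *Timp1*, *Pcsk5*, *Plaur*, *Adamtsl2* and *Fn1* are filled to the right of 0 in both panels, and the membrane ADAMs and *Vcan* in the right panel only.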

How the data were processed

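Thyroid RNA of 38 mice was hybridised to GeneChip Mouse Gene 1.0 ST arrays, 1 per mouse. The deposited values are log2 signals of 35556 probe sets, which the authors obtained by RMA. No source used here names its version. Gene names came from the platform annotation, and all 40 symbols matched RefSeq (GRCm38.p6) by Entrez number. No genome build is named for the array, so coordinates are those of the RefSeq promoter table.

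Fits were made with limma 3.58.1 in R 4.3.3 (lmFit, eBayes) over all 35556 probe sets, with Benjamini and Hochberg's adjustment over all of them and 0.05 as the threshold. The 18 non-malignant mice were fitted with *BRAF* status, lesion type and sex, and all 38 with 6 groups and sex. The flat filter of the study's methods (1.5-fold from the median in 20% of mice) keeps 4388 probe sets and 8 of the 40 genes, so it was an alternative. Replicates are separate mice; arrays have no depth, and their number limits precision. Figures used Python 3.11.15 and matplotlib 3.10.9. The fit was tested on simulated data.

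Genes and lists were chosen with earlier results of these data known. Named were the genes called in at least 1 comparison, those in the study's own list, the others by role group with the group's range, and up to 4 genes a list past the threshold. M_764 was taken as the tg1 mouse, and M_779 as the tg2 mouse of the *BRAF*(+) AT, from lesion, status and age as the study tabulates them. Alternatives were the flat and a dim filter (signal of at least 6 in 4 mice), median-centred arrays, intensity trend with robust variance, an ordinary linear model, array weights, no sex term, age, muscle and adipocyte scores, females only, no tg1 mouse, averaged probe sets, each mouse left out in turn and, added after seeing the data, a macrophage score.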

Additional observations from a re-analysis of the deposited data

Results flagged for a closer look

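In 90 checks of single mice against the rest of their group (Dixon's criterion, which chance passes in about 1 of 20), 6 mice stood apart. M_779 had the highest *Mmp1b* of the *BRAF*(+) AT, 3.67 against 3.30 for the nearest, and M_700 the lowest *Mmp24* of the PTC, 4.95 against 5.15. *Adamts1* was lowest in M_701 among *BRAF*(-) BHL, 6.57 against 7.06. *Adamts6* was lowest in M_940 among *BRAF*(-) AT, 4.48 against 4.99, and highest in M_946 among *BRAF*(-) BHL, 6.40 against 4.79. *Adamts14* was lowest in M_930 among *BRAF*(-) BHL, 5.20 against 5.63.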

How the results depend on the processing

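Alternatives were run for the counts of calls and for the 38 results of single called genes, and no difference among these changed sign: of 466 values for single genes, 401 kept their side of the threshold and 65 missed it, and of 689 values with 1 mouse left out, 588 and 101 did so. With the flat filter, which tests 8 of the 40 genes, the counts were 4 in PTC and 4 in BL against *BRAF*(-) AT, 2 in PTC against *BRAF*(+) AT and 1 among AT. With females only the counts were 1 for *BRAF* status, 5 and 3 for PTC and BL against *BRAF*(-) AT, 2 among BHL and 4 for PTC against *BRAF*(+) AT. With muscle and adipocyte scores they were 0 for *BRAF* status, 2 for BL, 1 among BHL and 3 by the F test, and with the macrophage score 5 for PTC and 3 for BL against *BRAF*(-) AT. Array weights gave 5 for *BRAF* status and 1 among AT, median-centred arrays 10 by the F test, and leaving out the tg1 mouse gave 1 among AT. Without each mouse in turn the counts ran from 1 to 5 for *BRAF* status, 6 to 13 for PTC and 2 to 9 for BL against *BRAF*(-) AT, 1 to 8 for PTC against *BRAF*(+) AT, 1 to 3 among BHL, 0 to 1 among AT, 5 to 9 by the F test, and 0 to 0 for PTC against BL, for *BRAF*(-) BHL against AT and for the interaction. For *BRAF* status the count was 5 without M_779 and 1 without M_930, among BHL 1 without M_943 and 2 without M_946 or M_958, and among AT 1 without M_523 or M_779. No paired analysis was possible because mouse numbers are not shared between groups; whether neighbouring numbers mark litter or cage mates is not in the labels, so no such block was fitted. The causes were not tested. Dim signals limit *Mmp1a* and *Mmp1b* most.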
